A study of Mus musculus with 8 samples.

Results

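The microRNA repertoire described here is that of mouse embryonic fibroblasts that lack the Csk gene (Csk-/-, C57BL/6J background) and were transfected with an empty vector, the condition named mock. Csk is the kinase that phosphorylates the inhibitory tail tyrosine of Src-family kinases, and its deletion is shared by all 4 groups of the study, which otherwise received Csk, c-Src or both. The 2 mock arrays, named as biological replicates in their titles, were taken by title from 8 arrays in all, and no other group enters the values below. They hold 611 mouse microRNA names and 39 viral names, each measured on 20 spots. The fibroblasts are an engineered line without Csk rather than wild-type cells, and the arrays carry no probe for Csk or Src, so the genotype cannot be checked on them.

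MicroRNAs are short RNAs cut from hairpin transcripts, and they guide Argonaute proteins to messenger RNAs that pair with bases 2 to 8 of the microRNA, the seed. Names with the same seed are read as a family because they can pair with the same sites, and names cut from neighbouring hairpins often share a transcript. In the nomenclature of these arrays an asterisk marks the hairpin arm that was held to be discarded (the star arm), while the plain name is the guide.

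Mature sequences from RefSeq (GRCm38.p6) are shown first for 6 bright names and for members of 2 bright families that the results below turn on. Capitals mark the seed, and for names with several genes 1 location is given.

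miR-21 (chr11:86584120-86584141, minus strand): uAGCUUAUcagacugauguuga

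miR-125b-5p (chr9:41581940-41581961, plus strand): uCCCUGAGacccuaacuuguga

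miR-130a (chr2:84741116-84741137, minus strand): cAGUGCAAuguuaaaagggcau

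miR-24 (chr8:84208875-84208896, plus strand): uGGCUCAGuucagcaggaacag

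miR-23a (chr8:84208563-84208583, plus strand): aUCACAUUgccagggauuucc

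miR-22 (chr11:75463772-75463793, plus strand): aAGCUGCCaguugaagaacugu

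The let-7 names below share the seed GAGGUAG and differ from let-7a at 1 base (let-7f, let-7c, let-7e) or 2 bases (miR-98) of 22.

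let-7a (chr13:48538239-48538260, minus strand): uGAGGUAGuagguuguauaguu

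let-7f (chr13:48537889-48537910, minus strand): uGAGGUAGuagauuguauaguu

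let-7c (chr15:85706616-85706637, plus strand): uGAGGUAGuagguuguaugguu

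let-7e (chr17:17830366-17830387, plus strand): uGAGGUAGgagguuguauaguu

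miR-98 (chrX:151913229-151913250, plus strand): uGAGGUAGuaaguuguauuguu

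The miR-15 and miR-16 names share AGCAGCA and diverge after it.

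miR-16 (chr3:69009918-69009939, plus strand): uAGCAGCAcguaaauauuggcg

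miR-15b (chr3:69009775-69009796, plus strand): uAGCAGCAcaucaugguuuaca

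miR-322 (chrX:53054306-53054327, minus strand): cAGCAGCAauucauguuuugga

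miR-15a (chr14:61632075-61632096, minus strand): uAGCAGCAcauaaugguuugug

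Of the 611 mouse names, 224 (36.7%) were marked as detected by the scanner software on both arrays, 14 on 1 array and 373 on neither. Array 1 had 236 detected names and array 2 had 226. The total gene signal is a background-subtracted intensity, the sum of the probe totals of a name. Among the names detected on both, this signal ran from a mean of 2.37 for miR-501-3p to 16246 for miR-720. Its sum over mouse names was 94307 on array 1 and 97941 on array 2, and no mouse spot was saturated. Each level below is given as this signal or as its share, in percent, of the summed mouse signal of the same array. Probes of different sequence label and hybridise with different efficiency, so ranks and shares are of signal and not of molecules.

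The repertoire was top-heavy. The 10 brightest names held 52.8% of the mouse signal on array 1 and 51.9% on array 2, and the same 10 names formed that set on both arrays. The 20 brightest held 67.2% and 66.9%, and here too the set was shared by the arrays. The 90% mark was reached by 57 names on array 1 and by 56 on array 2. Names detected on neither array together held 0.202% of the signal on average. With normexp background correction, which adds an offset of 50 to every probe, these names held 34.2% and the 10 brightest 25.7%, while the 20 brightest names stayed the same set.

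miR-720 was the brightest name, with signals of 16333 on array 1 and 16160 on array 2 and a share of 16.9% ± 0.580 (SD, n = 2). This name was later withdrawn from the microRNA registry as a fragment of a transfer RNA. miR-21, which represses Pdcd4 and is abundant in many fibroblast and tumour cells, followed with signals of 11384 and 12735 and a share of 12.5% ± 0.658. It was the brightest of the names matched to a RefSeq mature sequence. miR-709 was the third, with 5691 and 4280, a share of 5.202% ± 1.177, and the least even of the 20 brightest names between arrays.

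**Figure D1:**
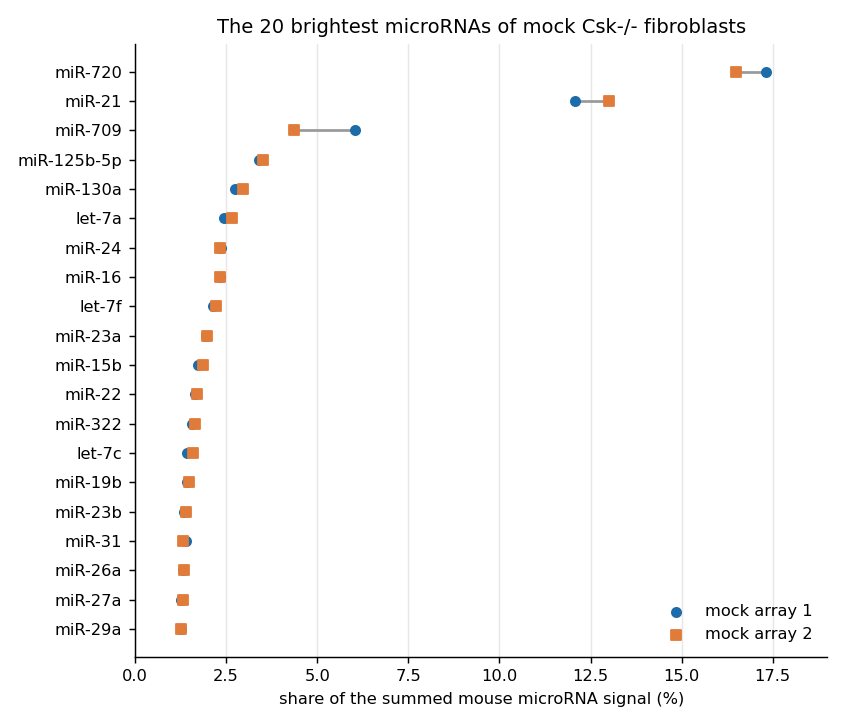
Share of the summed mouse microRNA signal (x axis, percent) of the 20 brightest names (y axis), with a circle for mock array 1, a square for mock array 2 and a line between them. miR-720 and miR-21 lie above 12% on both arrays, and the 17 names from miR-125b-5p down lie between 1.25% and 3.51%.

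Below these 3 names the levels declined gradually. miR-125b-5p, the mammalian relative of worm lin-4, had signals of 3197 and 3439 and a share of 3.45% ± 0.0855. miR-130a had 2578 and 2901, and let-7a, of the family that represses Ras, Hmga2 and Lin28 messages, had 2311 and 2610. miR-24 (2231 and 2296), miR-16 (2204 and 2286), let-7f (2006 and 2189) and miR-23a (1832 and 1940) completed the 10 brightest. Neighbours in this order were close: miR-24 and miR-16 differed by less in mean share (2.36% and 2.34%) than either differed from let-7f (2.18%).

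The names ranked 11 to 20 spanned a narrow range of mean share, with miR-15b at 1.80% ± 0.0958 and miR-29a at 1.26% ± 0.0150. Between them lay miR-22 (1.67%), miR-322 (1.61%), let-7c (1.502%), miR-19b (1.46%), miR-23b (1.37%), miR-31 (1.36%), miR-26a (1.34%) and miR-27a (1.30%). miR-29a pairs with collagen and other matrix messages, and miR-26a is known to repress Ezh2. miR-322 is the mouse counterpart of human miR-424. Several names in this range changed places between the arrays. let-7c was below miR-19b on array 1 (shares of 1.42% and 1.44%) and above it on array 2 (1.58% and 1.48%), and miR-23b was below miR-31 on array 1 and above it on array 2. In signal, miR-31 was at 1308 and 1301 in signal, miR-26a at 1249 and 1323, and miR-27a at 1192 and 1302.

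The 2 arrays gave nearly the same picture except for a few names. Across the 224 names detected on both, the log2 signals had a Pearson correlation of 0.995 and a Spearman correlation of 0.995. These arrays share the slide and the scan, and names are not independent replicates. The median absolute log2 difference in share between arrays was 0.07 for the 22 names with a mean signal of 1000 or more, 0.04 for the 64 names from 100 to 1000, 0.10 for the 109 names from 10 to 100 and 0.43 for the 29 names under 10. Those 4 ranges held 69.3%, 26.2%, 3.96% and 0.204% of the signal.

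The 5 names that differed most between the arrays were miR-501-3p (signals of 3.66 and 1.08), miR-193* (4.58 and 2.004), miR-494 (230 and 114), miR-92b (4.66 and 9.69) and miR-706 (7.01 and 3.88). All but miR-494 had a mean signal under 10. miR-494 stood apart because names of its brightness otherwise agreed: its share on array 2 was lower by 1.07 on the log2 scale, against a 90th percentile of 0.17 for names from 100 to 1000. The next largest differences at a signal of 100 or more, chosen after their values were seen, were those of miR-1224 (334 and 226), miR-690 (554 and 402) and miR-709, all brighter on array 1.

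**Figure D2:**
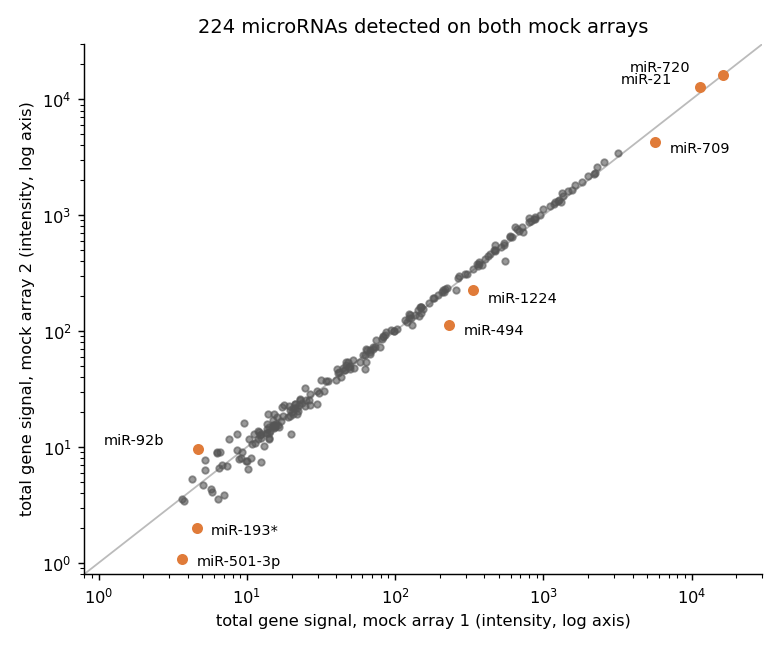
Total gene signal on mock array 2 (y axis) against mock array 1 (x axis), both in intensity units on log axes, for the 224 names detected on both arrays, with the line of equality and 8 named points in orange. The points hug the line above a signal of 10, where miR-494, miR-1224 and miR-709 sit below it, and scatter more widely under 10.

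Detection had no sharp floor. The dimmest names detected on both arrays were miR-501-3p, miR-193*, miR-466f-3p (3.74 and 3.41), miR-151-3p (3.65 and 3.59) and miR-29a* (4.24 and 5.32). Array 1 left miR-344 undetected at 7.70, and array 2 left miR-669d undetected at 10.6. The 5 brightest names detected on 1 array only were miR-669d (8.66 and 10.6), miR-467e (9.38 and 9.74), miR-129-3p (7.58 and 10.2), miR-878-3p (10.1 and 7.47) and miR-344 (7.70 and 9.55), so their signals were alike on the array that detected them and on the other.

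Different probes of a name also disagreed, which bounds how finely names can be ranked. Among the 86 names with a mean signal of 100 or more, the brightest probe of a name exceeded its dimmest by a median of 0.79 log2 units per spot on array 1 and 0.82 on array 2. For the 138 dimmer names, which include most star arms, the medians were 1.02 and 1.03. A probe at or under 0 left this ratio undefined for 26 of them on array 1 and 30 on array 2. miR-199a-3p and miR-199b* have the same mature sequence in RefSeq and are listed as separate names. miR-199a-3p read 830 and 891 and miR-199b* read lower on both arrays, a fold of 1.34 on array 1 and 1.36 on array 2.

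miR-199a-3p (chr1:162217883-162217904, plus strand): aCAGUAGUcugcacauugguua

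miR-199b* (chr2:32318524-32318545, plus strand): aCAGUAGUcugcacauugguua

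RefSeq mature sequences were found for 414 of the 611 names and 185 of the 224 detected on both, and these held 73.0% and 75.5% of the signal on the 2 arrays. miR-720, miR-709 and miR-23b are among the names not matched, so the families below leave them out. Other unmatched names are left out too, so family counts and shares below cover matched names only. The matched names fell into 332 seed groups, of which 136 had a name detected on both arrays. Among the 48 groups with at least 2 names, 21 had every name detected, 13 some and 14 none. The 10 brightest groups together held 48.8% of the signal on array 1 and 51.6% on array 2.

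Among the matched names, miR-21 was alone with its seed, AGCUUAU, at 12.5%. The let-7 family, GAGGUAG, came next with 10.4% ± 0.638, and all 9 of its names were detected. For comparison with this and the other family counts, 185 of the 414 matched names were detected on both arrays. No let-7 name dominated: let-7a held 24.5% of the family's signal, followed by let-7f, let-7c and let-7i, which had a mean share of 1.11%. let-7a read 1.17-fold above let-7f, 1.70-fold above let-7c and 18.5-fold above miR-98. With 1 or 2 bases separating the sequences printed above, signal passing between let-7 probes was not tested.

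The miR-15 and miR-16 family, which represses Bcl2 and G1 cyclins, held 6.93% ± 0.180 with 6 of 6 names detected. miR-16, miR-15b, miR-322 and miR-15a supplied most of it, while miR-497 (82.5 and 89.8) and miR-195 (81.8 and 85.7) were dim. The miR-125 family, CCCUGAG, held 4.01% ± 0.126, of which miR-125b-5p gave 86.0%; miR-125a-5p read 471 and 549 and miR-351 read 30.5 and 29.0. The family of miR-130a, AGUGCAA, held 3.95% ± 0.212 with 3 of 4 matched names detected. miR-130a was 20.8-fold brighter than miR-130b, from which it differs at 2 bases. miR-301a had a mean share of 0.958%, and miR-721 was not detected. miR-301b, detected on both arrays, had no matched sequence and is not in the family count.

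The family with the seed AAAGUGC held 3.47% ± 0.0269. Its members miR-106b (1107 and 1200), miR-20a (870 and 929) and miR-93 (725 and 719) were near each other in signal, and miR-20b reached 515 and 534. miR-17, the name usually given to this family, read 40.1 and 37.6. The remaining groups among the 10 brightest were those of miR-29 (2.36% ± 0.0398, with miR-29a, miR-29b and miR-29c all detected), miR-24 (2.36% ± 0.0148), miR-27 (2.17% ± 0.0724, miR-27a and miR-27b) and miR-23a (1.96% ± 0.0268). miR-23b, which is not in this count, had a share of 1.37%. The group of miR-30a, miR-30c and miR-30e held 1.31%, without miR-30b and miR-30d, which had no matched sequence and held 0.780%. The places of the miR-23a and miR-30a groups therefore hold for the matched names only.

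**Figure D3:**
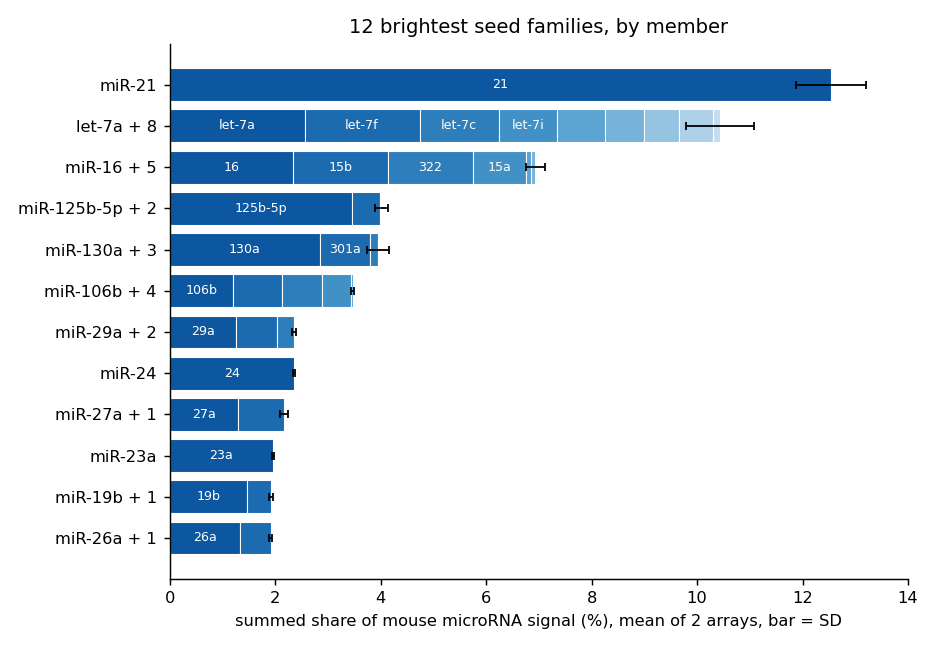
Summed share of the mouse microRNA signal (x axis, percent, mean of 2 arrays) of the 12 brightest seed families (y axis, named by their brightest member and the number of further names), each bar divided by member from brightest to dimmest, with the SD of the sum over the 2 arrays as error bar. The let-7 and miR-16 bars are split among several members of like size, while miR-21 and miR-24 are bars of 1 name.

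Names cut from neighbouring genes were compared next, since a shared transcript would supply their hairpins together. RefSeq placed 579 of the 611 names, and chaining genes within 10 kb on a strand gave 55 clusters, of which 35 had at least 2 names detected on both arrays and 15 had none. A name with several genes is counted in full in each of its clusters, so cluster shares overlap.

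At 10 kb the brightest cluster was that of miR-23a, miR-27a and miR-24 on chromosome 8, with 5.65% ± 0.0588. Its paralogue on chromosome 13, with miR-23b, miR-27b and the same miR-24, held 4.62% ± 0.0325. Without miR-24, which cannot be assigned to either gene by its sequence, the names found only on chromosome 8 held 3.30% and those found only on chromosome 13 held 2.26%. The star arms do belong to 1 gene each: miR-24-2*, from chromosome 8, read 34.4 and 37.2, and miR-24-1*, from chromosome 13, read 15.3 and 15.2.

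The let-7a, let-7f and let-7d cluster on chromosome 13 held 5.42% ± 0.260, and of it 0.684% came from names with no other gene, among them let-7d (595 and 650). The other let-7 clusters among the 10 brightest were let-7a with miR-100 on chromosome 9 (2.72% ± 0.148) and let-7c with let-7b on chromosome 15 (2.43% ± 0.191). miR-100 read 155 and 156. With genes chained up to 50 kb, the chromosome 9 cluster took in a miR-125b gene and became the brightest at 6.17% ± 0.234. The let-7c and miR-99a cluster on chromosome 16 did the same and held 5.46% ± 0.199, at rank 3. In both, miR-125b-5p and the let-7 name also have other genes. The 2 clusters that pair miR-16 with a miR-15 gene held 4.16% ± 0.0937 on chromosome 3, with miR-15b, and 3.35% ± 0.0160 on chromosome 14, with miR-15a.

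The miR-17~92 cluster on chromosome 14, a Myc-induced transcript with oncogenic activity, held 4.31% ± 0.0558. Of its 11 names, 9 were detected, against 36.7% of all names. Its names covered a wide range although they are cut from the same transcript. miR-19b (1354 and 1452) was brightest, then miR-92a (874 and 925), miR-20a (870 and 929), miR-19a (438 and 465) and miR-18a (362 and 363), with miR-17* (67.4 and 68.8) and miR-17 (40.1 and 37.6) far below. miR-19b and miR-92a also have genes in the paralogous cluster on chromosome X. miR-17 and miR-20a differ at 2 of 23 bases, and miR-20a read 23.2-fold brighter. On array 1 the 2 probes of miR-17 read 3.41 and 0.601 per spot, and those of miR-20a read 57.8 and 29.2.

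miR-20a (chr14:115044183-115044205, plus strand): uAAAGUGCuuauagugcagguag

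miR-17 (chr14:115043684-115043706, plus strand): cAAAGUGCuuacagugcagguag

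The paralogous cluster on chromosome X held 2.94% ± 0.0450, of which 0.545% was miR-20b, its only detected name without a second gene. miR-18b and miR-363, which are cut from that cluster alone, were not detected. miR-20b differs from miR-20a at 2 of 23 bases, and miR-20a read 1.72-fold brighter. Signal passing between the probes of miR-20a and miR-20b was not tested. The miR-106b, miR-93 and miR-25 cluster on chromosome 5, which lies in an intron of Mcm7, held 2.70% ± 0.0269, all of it from names with no other gene.

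The long clusters, chained up to 50 kb, differed in how many names were detected, against 36.7% of all names. The imprinted Dlk1-Dio3 region of chromosome 12 formed 2 clusters. Of the 50 names in the first, miR-494 and miR-487b were detected, and of the 24 names in the second, which includes miR-127 and miR-434-3p, 1 was detected, miR-1906, a name with more than 1 gene. Most of the first cluster's signal (0.261% on array 1 and 0.136% on array 2) was miR-494, which differed between the arrays as given above. The X-linked cluster with miR-743b and miR-465a had 0 of 24 names detected on both arrays. The repeat-rich cluster of miR-466, miR-467 and miR-669 names on chromosome 2 had 10 of 32 names detected (31.2%) and 0.221% of the signal. Of the 14 names of the miR-290 cluster on chromosome 7, 2 were detected. In contrast, 9 of 10 names were detected in the X-linked cluster of miR-322 and miR-503, which held 2.17% ± 0.0392.

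The names allowed 177 comparisons of the arms of a hairpin, 112 of a guide with its star and 65 of a 5p with a 3p arm. Both arms were detected on both arrays in 41 of them, 31 with a star and 10 of the 5p and 3p kind. In 33 guide and star pairs the guide alone was detected, in 3 the star alone and in 40 neither. Of the 115 names with an asterisk, 35 were detected on both arrays (30.4%), against 189 of 496 plain names (38.1%). The names with an asterisk held 1.90% and 1.94% of the signal. They include miR-199b*, which has the same sequence as miR-199a-3p, so its signal cannot be assigned to a star arm. These 2 names together held 1.56%, of which miR-199a-3p gave 57.5%.

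The guide was brighter in 28 of the 31 guide and star pairs, by a median of 51.3-fold among these 28, and by over 10-fold in 24. The widest gap was that of miR-21, whose star arm read 10.8 and 10.5, a ratio of 10.14 ± 0.14 on the log2 scale or 1132-fold. let-7a (8.31 ± 0.20), miR-29a (7.999 ± 0.177), let-7c over let-7c-1* (7.79 ± 0.12) and miR-24 over miR-24-1* (7.22 ± 0.04) followed. The 4 probes of miR-21* ran from 0.0602 to 1.33 per spot on array 1, and the dimmest was at or under 0 on array 2. The hairpin of miR-21 is shown with both arms in capitals, miR-21 being the first.

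Mir21a (chr11:86584067-86584158, minus strand): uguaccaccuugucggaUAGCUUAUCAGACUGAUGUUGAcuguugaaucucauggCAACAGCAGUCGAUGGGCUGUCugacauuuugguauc

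In 3 pairs the arm with the asterisk was brighter. miR-17 was at 40.1 and 37.6 and miR-17* at 67.4 and 68.8, a log2 ratio of guide over star of -0.81 ± 0.09. Probes of these 2 arms overlapped on array 1, with 3.41 and 0.601 per spot for miR-17 and 4.39 and 2.35 for miR-17*. miR-140, a microRNA of cartilage and mesenchyme, was at 269 and 299 and miR-140* at 366 and 395, a ratio of -0.42 ± 0.03. miR-674 was at 10.01 and 7.54 and miR-674* at 35.5 and 37.1, a ratio of -2.06 ± 0.34. The star arm lay above the guide on each array in all 3 pairs, but with normexp background correction the ratio of miR-674 over miR-674* turned to 0.13.

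Mir17 (chr14:115043671-115043754, plus strand): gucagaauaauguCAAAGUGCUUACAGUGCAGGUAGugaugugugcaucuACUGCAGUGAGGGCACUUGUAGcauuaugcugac

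Mir674 (chr2:117185127-117185226, plus strand): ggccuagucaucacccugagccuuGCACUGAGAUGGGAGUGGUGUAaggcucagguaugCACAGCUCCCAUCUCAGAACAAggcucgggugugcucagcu

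miR-31, which is known to repress integrin and RhoA messages, had the brightest star arm next to miR-140* among the 31 guide and star pairs. miR-31 read 1308 and 1301 and miR-31* read 265 and 286, a log2 ratio of 2.24 ± 0.08.

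Mir31 (chr4:88910557-88910662, minus strand): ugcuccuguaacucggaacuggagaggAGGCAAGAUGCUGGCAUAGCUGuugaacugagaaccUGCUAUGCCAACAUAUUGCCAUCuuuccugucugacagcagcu

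The pairs nearest to equal arms were miR-450b-5p with miR-450b-3p (-0.20 ± 0.20), miR-140 (-0.42 ± 0.03), miR-17 (-0.81 ± 0.09), miR-362-5p with miR-362-3p (-1.003 ± 0.031) and miR-467a with miR-467a* (1.32 ± 0.40), each a log2 ratio of the first-named over the second-named arm. Of these 5, only miR-450b had a difference no larger than the SD between arrays. Among the 10 pairs of 5p and 3p names, the 5p arm was brighter in 5 and the 3p arm in 5. miR-342-5p read 5.77 and 4.30 and miR-342-3p read 147 and 161, the widest of the gaps toward the 3p arm. miR-199a-5p read 214 and 217, against 830 and 891 for miR-199a-3p.

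For guides without a detected star, a lower bound was set with the highest signal that was left undetected on each array, 7.70 and 10.6, and the lower of the 2 arrays' ratios is given. The 5 brightest such guides among names with an asterisk partner were miR-16 (at least 215-fold), miR-27a (at least 122-fold), let-7i (at least 106-fold), miR-15a (at least 94.2-fold) and miR-92a (at least 86.9-fold). The 3 stars detected without their guide were miR-191* (7.62 and 11.7), miR-877* (19.6 and 18.5) and miR-483* (15.6 and 15.8). miR-191, which is abundant in many tissues, had signals below 0 on both arrays. Where both arms had a RefSeq sequence, in 36 pairs, the brighter arm began with U in 20 and the dimmer arm in 5.

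**Figure D4:**
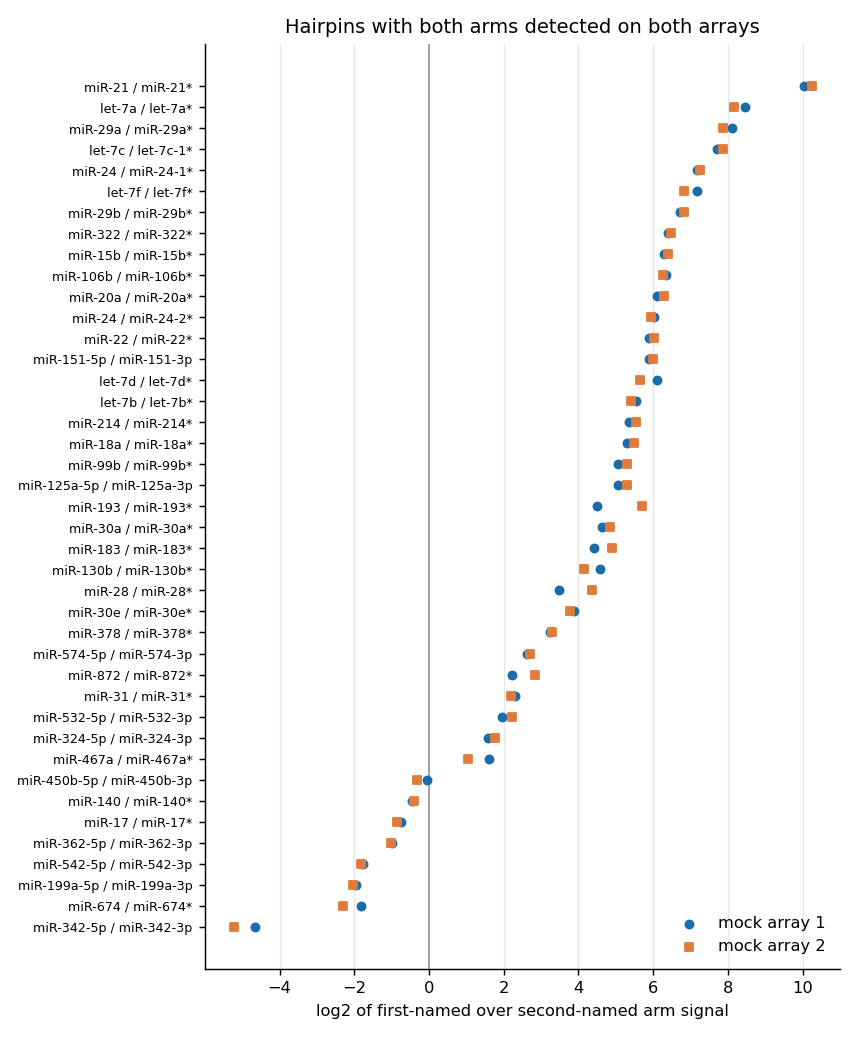
Log2 ratio of the first-named over the second-named arm (x axis) in the 41 pairs with both arms detected on both arrays (y axis), with a circle for mock array 1 and a square for mock array 2. miR-21 is at the top near 10.14, most pairs lie right of 0, and miR-674, miR-17, miR-140 and 5 of the 5p and 3p pairs lie left of it.

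The repertoire was then set against the label of a fibroblast. The lists used here and below were chosen with earlier results of these data known. Their counts therefore give no independent support for that label. Of 22 names known from fibroblasts and other mesenchymal cells, 21 were detected on both arrays, against 36.7% of all names, and together they held 30.2% ± 0.869 of the signal. Much of this is miR-21. miR-199a-5p, miR-214 (206 and 216), miR-152 (117 and 124), miR-221 (467 and 497) and miR-222 (145 and 135) were among them. miR-145, which is cut from the same transcript as miR-143 and marks smooth muscle, was the exception at 3.24 and 1.86, while miR-143 read 71.0 and 70.6.

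The 13 lists of names typical of other tissues held 107 names. Of these, 18 (16.8%) were detected on both arrays, against 36.7% of all names, 4 on 1 and 85 on neither. Together the lists held 1.61% of the signal on array 1 and 1.67% on array 2. Above the share of all names were the retina and sensory (3 of 6), gut and kidney (2 of 3) and endothelial (1 of 2) lists. Counts of 0 in the epithelial, keratinocyte and liver lists rest on few names. On both arrays the epithelial list had 0 of 5 names detected (miR-200a, miR-200b, miR-200c, miR-141 and miR-429), the keratinocyte list 0 of 2 (miR-203 and miR-205), the X-linked testis list 0 of 25 (miR-878-3p was detected on array 1 alone) and the liver list 0 of 1, with miR-122 below 0 on both arrays. In the blood cell list miR-142-3p, miR-223, miR-451, miR-144 and miR-150 were not detected. In the neural list miR-124 and miR-9, at 5.80 and 6.52, were not detected either.

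Most of the signal in these lists came from miR-96, miR-183 and miR-182, which are cut from neighbouring hairpins on chromosome 6 and are known from retina and inner ear. miR-96 read 667 and 753, miR-183 read 212 and 228, and miR-182 read 149 and 142. The other names of the retina and sensory list, miR-184, miR-204 and miR-211, were not detected. Without miR-96, miR-182 and miR-183, the 13 lists held 0.524% of the signal. With normexp all the lists together held 8.94%, against 15.8% for the fibroblast list. miR-96 ranked 33rd of all names.

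miR-96 (chr6:30169506-30169528, minus strand): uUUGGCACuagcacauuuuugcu

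miR-182 (chr6:30165962-30165986, minus strand): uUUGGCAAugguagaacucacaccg

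miR-183 (chr6:30169711-30169732, minus strand): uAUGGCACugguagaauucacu

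The other 15 names detected from these lists were dimmer. miR-155, of activated lymphocytes and macrophages, read 85.3 and 93.3. miR-7a, of endocrine and neural cells, read 82.7 and 90.8. miR-212 read 52.9 and 48.4, while miR-132, from the same locus, was not detected. The rest had mean signals under 30.

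Of the neural names, miR-128 read 25.1 and 25.6, miR-219 read 14.9 and 15.5 and miR-153 read 5.21 and 6.31. miR-126-3p, the endothelial microRNA, read 24.7 and 22.5, and miR-126-5p was not detected. miR-206, of skeletal muscle, read 12.1 and 13.4, while miR-1, miR-133b, miR-208a, miR-208b and miR-499 were not detected and miR-133a was detected on array 1 only. The gut and kidney names miR-194 (19.7 and 20.8) and miR-192 (11.2 and 13.1) were both detected. Of the 22 names of embryonic stem cells, miR-291b-5p (19.4 and 22.3) and miR-290-3p (9.56 and 16.2) were detected, and 19 were detected on neither array, all 8 names of the miR-302 and miR-367 cluster among them. miR-34b-5p (14.9 and 17.1), miR-34c (11.9 and 13.8) and miR-486 (10.3 and 11.7) completed the detected names. Whether a few cells of another type or a low level in every cell gives such signals cannot be told apart in bulk RNA. Signal not specific to a name was not tested either. The 4 viral names detected on both arrays had mean signals from 10.1 to 44.2, a range in which miR-128, miR-126-3p and miR-206 also lie.

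**Figure D5:**
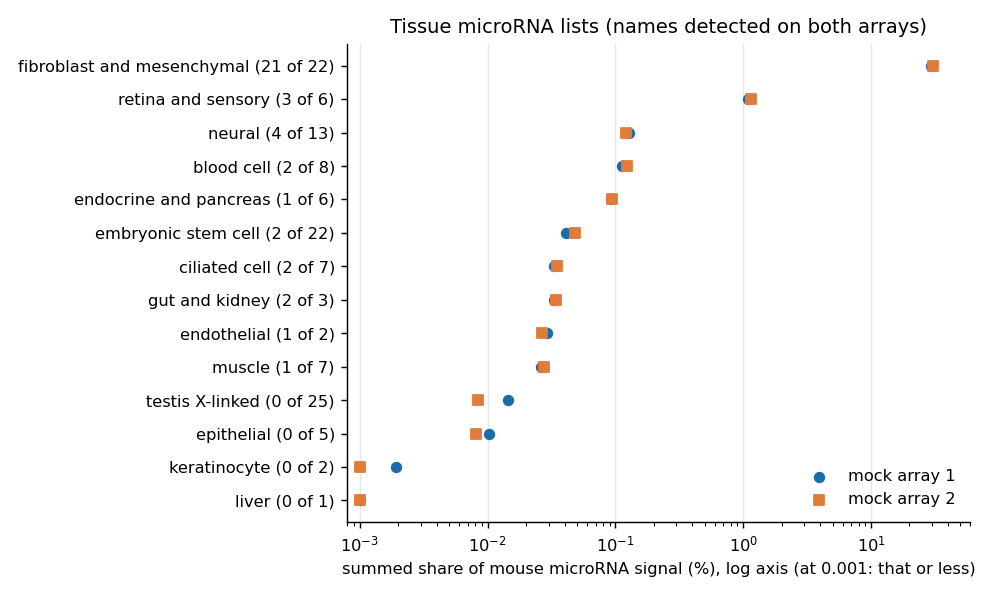
Summed share of the mouse microRNA signal (x axis, percent, log axis) of each tissue list (y axis, with the number of names detected on both arrays of those on the array), with a circle for mock array 1 and a square for mock array 2. The fibroblast and mesenchymal list lies near 30%, the retina and sensory list near 1%, and each other list under 0.2%; the lists of liver and of keratinocytes have squares at the left edge, where values of 0.001 or less are drawn.

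Base composition was compared with brightness. Over the 185 matched names detected on both arrays, GC content and log2 signal had a Pearson correlation of -0.22 and a Spearman correlation of -0.19, a description across names whose probes also differ in length and number. The median GC content was 40.9% for the 19 matched names with a signal of 1000 or more, 45.8% for all matched names detected on both arrays and 46.5% for those detected on neither. Of the 19 brightest, 14 began with U, as did 45.9% of the matched names detected on both arrays and 37.8% of those detected on neither.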

How the data were processed

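Total RNA (100 ng, integrity number above 9, per the labels' protocols) was hybridised to 1-colour Agilent mouse microRNA arrays. The deposited intensity values are Feature Extraction 9.5.3.1 output, per the file headers. The total gene signal equalled the sum of its probe totals within 1% for all 611 mouse names, and a probe total scaled with the mean processed signal times the number of spots. Detection is the software's own flag. Signals below 0 (252 and 293 names) were set to 0 and divided by the array's summed mouse signal. A log2 ratio is the log2 of 2 shares or signals computed here. The deposited value table equals the same intensity for detected names, with 1 as its lowest value and its median on both arrays.

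Mature sequences, genes and hairpins came from RefSeq tables (GRCm38.p6) matched by name. Seeds are bases 2 to 8, and clusters chain genes within 10 kb.

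The 2 arrays share a slide and a scan, and nothing says that their RNA came from separate cultures beyond their titles; SDs over n = 2 measure the spread between these arrays, whose number limits the precision. No test was made. Named genes were the 20 brightest, up to 4 members of the 10 brightest families and clusters, the widest and narrowest arm ratios, stars brighter than guides, the brightest guides without a detected star, the largest differences between arrays, names at the edge of detection, detected names of other-tissue lists, and 6 tissue microRNAs. The members and lists were chosen with earlier results of these data known. Calculations used Python 3.11.15, pandas 2.3.3, scipy 1.17.1, and limma 3.58.1 in R 4.3.3 for the normexp alternative, and the steps were tested on simulated data. Alternatives covered each array alone, the probe summary, the background correction, the denominator, the detection rule, the cluster distance and the kind of arm pair.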

Additional observations from a re-analysis of the deposited data

Results flagged for a closer look

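The arrays also carry 39 names of viral microRNAs, which enter none of the shares above. Of these, 4 were detected on both mock arrays and none on 1 array, against 224 of the 611 mouse names (36.7%) detected on both. The mean signal was 44.2 for mcmv-miR-M23-1-5p, 39.3 for mghv-miR-M1-2, 22.9 for mcmv-miR-m88-1 and 10.1 for mcmv-miR-m88-1*. The 2 arrays were alike in each, with 44.6 and 43.8 for the brightest. For scale, 120 mouse names detected on both arrays had a higher mean signal than mcmv-miR-M23-1-5p. The summed signal of the viral names was 125 on array 1 and 128 on array 2. The source of the signal was not tested.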

How the results depend on the processing

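With 2 arrays, each array alone lies within the SD of the pair by construction, so its shares say nothing about stability. The arrays gave 226 to 236 detected names, 51.9% to 52.8% for the 10 brightest, 1.61% to 1.67% for the other-tissue lists and 41 to 46 pairs with both arms detected. The 20 brightest names were the same set under each probe summary, under normexp and in the deposited value table. Summing probe means gave 51.7% for the 10 brightest, 5.58% and 4.56% for the miR-24 clusters of chromosomes 8 and 13, and a median absolute log2 arm ratio of 4.18, against 5.09 in the main setting. The brightest probe gave 54.5% for the 10 brightest, 20.5% for miR-720, 10.5% for miR-21 as a name and as a family, 6.47% for miR-709, 9.38% for let-7, 6.20% for miR-16, 5.18% and 4.39% for the miR-24 clusters, 1.55% for other-tissue lists, 27.6% for the fibroblast list and 3.73 for the arms. Normexp adds an offset of 50 to every probe, so names detected on neither array held 34.2%. It gave 25.7% for the 10 brightest, 8.15% for miR-720, 6.13% for miR-21 and its family, 2.48% for miR-709, 5.57% for let-7, 3.69% for miR-16, 3.07%, 3.17% and 2.57% for the clusters of miR-24 (chromosome 8), let-7a and miR-24 (chromosome 13), 8.94% for other-tissue lists, 15.8% for the fibroblast list and 0.92 for the arms. Under it 5 stars exceeded their guides, and miR-674 over miR-674* reversed to 0.13, with the offset entering 4 probes of miR-674 and 3 of miR-674*. Without miR-720 in the denominator, a choice made after seeing the data, the 10 brightest held 44.8% and miR-21 held 15.1%. No paired analysis was possible because only the 2 mock arrays were described and no groups were compared. At 50 kb the let-7a and miR-100 cluster of chromosome 9 held 6.17%, against 2.72% at 10 kb, because a miR-125b gene joined it. Names under a signal of about 10 lie where detected and undetected names overlap.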
